A study of Mus musculus with 12 samples.

Results

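The Dlx genes encode homeodomain transcription factors, and their H3K4me3 was described from 4 lists of broad peaks, 1 for each of 4 regions of the embryonic mouse forebrain. The 8 genes were chosen by name from 55449 annotated genes. They are the 6 protein-coding genes Dlx1, Dlx2, Dlx3, Dlx4, Dlx5 and Dlx6 and the 2 noncoding antisense genes Dlx1as and Dlx6os1. A peak was assigned to a gene when it shared at least 1 bp with the 5 kb either side of any of the gene's annotated transcription start sites (TSSs), and peaks between the paired genes of each of the 3 clusters were described too. Covered bases are the bases under peaks in these windows.

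The measured mark, H3K4me3, is a histone methylation of promoters that are active or poised. In the assay, CUT&Tag, an antibody directs a transposase to marked chromatin and the released fragments are sequenced. All tissue came from wild-type C57BL/6J mice, and the labels name no treatment. The regions were the medial (MGE), lateral (LGE) and caudal (CGE) ganglionic eminences, which are ventral and produce inhibitory neurons and other ventral cells, and the somatosensory cortex (CTX), which is dorsal and produces excitatory neurons. The labels name E12.5 and E14.5 (embryonic days) without saying which library had which, and the study's text places these profiles at E12.5. The labels hold 12 libraries from 2 replicates of each region. The authors merged the replicates before they called peaks, so each region is 1 list, no value below has a replicate error, and no difference between regions was tested. The label protocol also speaks of mixing nuclei of the 4 regions in equal numbers, although every library is labelled with 1 region. The label is used here. In bulk tissue, fewer cells with the mark and less of the mark per cell cannot be told apart.

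Dlx genes are related to the Distal-less gene of flies and lie in mammals as pairs that are transcribed towards each other. Dlx1, Dlx2, Dlx5 and Dlx6 are expressed in the ventral forebrain, where they are needed for the production and migration of GABAergic neurons, while Dlx3 and Dlx4 are known mainly from skin, teeth, placenta and the pharyngeal arches. The stretches between the paired genes hold conserved enhancers, and Dlx1as and Dlx6os1 (also called Evf2) are noncoding RNAs transcribed across them or across the coding genes.

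In GRCm38, the Dlx1-Dlx2 cluster lies on chromosome 2 from 71528113 (the start of Dlx1, plus strand) to 71546754 (the start of Dlx2, minus strand). The Dlx5-Dlx6 cluster lies on chromosome 6 from 6863334 (Dlx6, plus strand) to 6882085 (Dlx5, minus strand). The Dlx3-Dlx4 cluster lies on chromosome 11 from 95120119 (Dlx3, plus strand) to 95146263 (Dlx4, minus strand). Dlx1as runs on the minus strand over Dlx1, from 71537891 to 71516454, and Dlx6os1 runs on the minus strand over Dlx6, from 6871633 to 6820189. Their windows therefore share peaks with Dlx1 and Dlx6, and their values are not independent of those genes.

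The sequences that bear on the results are the stretches between paired genes that lay under a peak in all 3 eminence lists, and the starts of Dlx2 and Dlx6os1, which differed in base composition and in their peaks. Capitals mark matches, on either strand, to 5 motifs: TAATTA and TAATTG, which are cores bound by homeodomains, TATAAA, found before some promoters, CCAAT, which NF-Y binds, and GGGCGG, which Sp1 binds. The reverse complement of TAATTG can overlap with CCAAT. A match is a description of the letters only. The stretches between the genes are printed on the plus strand, the first whole and the other two as the central 300 bases.
Between Dlx1 and Dlx2, chr2:71539114-71539322: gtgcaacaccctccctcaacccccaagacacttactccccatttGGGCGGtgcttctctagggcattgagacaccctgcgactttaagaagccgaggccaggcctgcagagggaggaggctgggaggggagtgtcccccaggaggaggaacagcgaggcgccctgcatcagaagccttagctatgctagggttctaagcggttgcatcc
Between Dlx6 and Dlx5, proximal to Dlx6, chr6:6870411-6870710: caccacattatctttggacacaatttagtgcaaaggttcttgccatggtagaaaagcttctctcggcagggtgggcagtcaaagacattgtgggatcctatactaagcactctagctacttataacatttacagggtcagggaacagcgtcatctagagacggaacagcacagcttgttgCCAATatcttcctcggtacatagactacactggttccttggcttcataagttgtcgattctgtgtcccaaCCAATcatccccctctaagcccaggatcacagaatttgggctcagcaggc
Between Dlx6 and Dlx5, proximal to Dlx5, chr6:6874338-6874637: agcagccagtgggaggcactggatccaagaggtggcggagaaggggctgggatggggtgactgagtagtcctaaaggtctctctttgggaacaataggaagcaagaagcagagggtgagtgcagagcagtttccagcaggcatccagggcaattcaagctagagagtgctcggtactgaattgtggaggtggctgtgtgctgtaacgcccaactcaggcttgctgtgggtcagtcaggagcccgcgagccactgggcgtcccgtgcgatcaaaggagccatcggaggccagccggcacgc

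The stretch between Dlx1 and Dlx2 was 209 bp long, lay in no annotated gene and was 1223 bp from the nearest TSS, that of Dlx1as. Its peaks were 209 bp wide in MGE, 313 in LGE and 832 in CGE, and CTX had none. It held 1 GGGCGG, which 30.8% of the eminence-shared stretches without a TSS hold in a window of the same length, and its G+C share was 60.3% against a median of 59.3%. The first stretch between Dlx6 and Dlx5, 679 bp in an intron of Dlx6os1, was 692 bp from a Dlx6os1 TSS. Its peaks were 684 bp wide in MGE, 810 in LGE and 1585 in CGE, and CTX had none. Its central 300 bases held 2 CCAAT, which at least once were present in 27.9% of 2580 comparable stretches, and had a G+C share of 47.0%, lower than in most of them (8.06th percentile). The second stretch, also 679 bp and in no gene, was 2516 bp from the nearest TSS. It was the one between-gene stretch with a peak in CTX as well, with widths of 311 bp in CTX, 855 in MGE, 679 in LGE and 1033 in CGE. None of the 5 motifs matched in its central 300 bases.

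Starts of 3 of the 8 genes were matched in RefSeq's promoter sequences for GRCm38, as 4 promoters among 32851 (Dlx1, Dlx2 and 2 starts of Dlx6os1), and Dlx3, Dlx4, Dlx5, Dlx6 and Dlx1as were not. The 250 bases before each of 3 of these starts are printed 5′ to 3′ on the minus strand, the strand of both genes.
Dlx2, chr2:71546755-71547004: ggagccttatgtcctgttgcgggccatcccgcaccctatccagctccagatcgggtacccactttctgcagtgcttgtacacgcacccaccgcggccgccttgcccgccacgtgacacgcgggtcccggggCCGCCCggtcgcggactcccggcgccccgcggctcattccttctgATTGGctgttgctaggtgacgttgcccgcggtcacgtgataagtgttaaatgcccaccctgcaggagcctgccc
Dlx6os1 upstream start, chr6:6869534-6869783: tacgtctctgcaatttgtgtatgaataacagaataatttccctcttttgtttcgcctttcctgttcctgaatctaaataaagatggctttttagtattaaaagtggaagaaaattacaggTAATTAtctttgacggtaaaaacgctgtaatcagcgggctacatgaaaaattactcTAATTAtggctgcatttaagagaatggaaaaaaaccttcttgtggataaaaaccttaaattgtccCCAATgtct
Dlx6os1 downstream start, chr6:6861684-6861933: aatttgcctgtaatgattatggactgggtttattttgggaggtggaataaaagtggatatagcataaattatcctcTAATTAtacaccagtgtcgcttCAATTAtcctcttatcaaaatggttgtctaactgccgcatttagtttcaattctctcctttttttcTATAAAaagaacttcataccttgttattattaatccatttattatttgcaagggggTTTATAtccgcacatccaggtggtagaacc

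The 300 bases around the Dlx2 start had a G+C share of 66.3% and a CpG observed-to-expected ratio of 0.898, against medians of 52.7% and 0.384 over all promoters. They held 1 CCAAT (in 37.4% of all promoters) and 1 GGGCGG (in 35.7%), and the start lay under a peak in all 4 lists. The Dlx1 start at 71529445 was similar, with a G+C share of 69.3% and a CpG ratio of 0.767, and it too lay under a peak in all 4 lists. Both Dlx6os1 starts were A+T-rich, with G+C shares of 35.7% at 6869533 and 35.3% at 6861683, at the 4.47th and 4.14th percentiles of promoters. The window at 6869533 held 2 TAATTA, which 0.490% of promoters hold at least 2 times, and touched no peak in any list. The window at 6861683 held 1 TAATTA (in 5.29% of promoters), 1 TAATTG (in 8.0%) and 2 TATAAA (at least 1 in 13.6%). These shares are over all promoters and were not matched for G+C share, which is low in both windows. The window at 6861683 touched the ends of peaks in MGE and LGE, past the start in the direction of transcription, while the start itself lay under no peak in any list. The MGE peak ended at 6861682, right beside this start. The annotated Dlx6os1 TSS at 6861591 lay under a peak in each eminence and not in CTX.

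The lists differ in ways that touch every gene. They hold between 17284 (LGE) and 25339 (MGE) peaks, with median widths that rise from 563 bp (MGE) and 701 bp (CTX) to 1168 bp (LGE) and 1240 bp (CGE), and a covered length of 16.7 Mb in CTX, 17.1 Mb in MGE, 21.6 Mb in LGE and 23.5 Mb in CGE. The lists do not give the reads behind a peak. The library depths stated in the study's methods, which were not used here, were highest for CGE and lowest for MGE, and their part in these differences was not tested. Of 14 region markers, 8 had their highest percentile in their own region and 5 their most covered bases. The MGE markers Nkx2-1 and Lhx8 had no peak in CTX and their highest percentile in MGE, but Nkx2-1 covered 3262 bases in MGE, 2934 in LGE and 3804 in CGE. The MGE marker Lhx6 covered 451 bases in CTX, 3057 in MGE, 3711 in LGE and 5920 in CGE. Lhx6 and the LGE markers Isl1 and Ebf1 had their highest percentile and most covered bases in CGE, so the markers did not set the eminence lists clearly apart. Of the 5 cortical markers, Tbr1, Neurod6 and Emx2 did not have their highest percentile in CTX, and cortical markers were covered in LGE and CGE as well. Peaks at Emx1 covered 2969 bases in CTX, against 495 in MGE, 3337 in LGE and 3453 in CGE. Those at Neurog2 covered 2169 bases in CTX, against 340 in MGE, 2123 in LGE and 2143 in CGE. The part that tissue of another region and the differences between the lists have in the Dlx values was not tested. To limit the effect of list width, each gene also has a percentile, which is the share of 21951 protein-coding genes with fewer covered bases in the same list (ties counted at 50%). Genes without a peak are tied at the bottom of this scale, so a gene with few covered bases can still reach a middling percentile. Dlx4, with 166 covered bases in CTX, stood at 37.1 there.

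Every Dlx gene had a peak in LGE and CTX (8 of 8 in both), and 7 of 8 had one in MGE and in CGE. Over all genes, 34.9% had a peak in LGE, 35.1% in CTX, 36.5% in MGE and 35.2% in CGE, and over protein-coding genes 64.2%, 63.8%, 65.0% and 64.6%. The genes without one were Dlx3 in MGE and Dlx4 in CGE. A peak was therefore present at the ventral forebrain genes Dlx1, Dlx2, Dlx5 and Dlx6 in the cortex list as well, and none of the 8 genes had peaks in all 3 eminences and none in CTX, a pattern of 2.03% of all genes and 1.64% of protein-coding genes with a peak in any list. The regions differed in how many bases the peaks covered. Dlx1, Dlx1as, Dlx2, Dlx5, Dlx6 and Dlx6os1 (6 of 8) had more covered bases in each eminence than in CTX, against 35.1% of all genes and 37.7% of protein-coding genes with a peak in any list. On the percentile scale the same count was 6 of 8, against 19.8% and 21.1%.

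**Figure D1:**
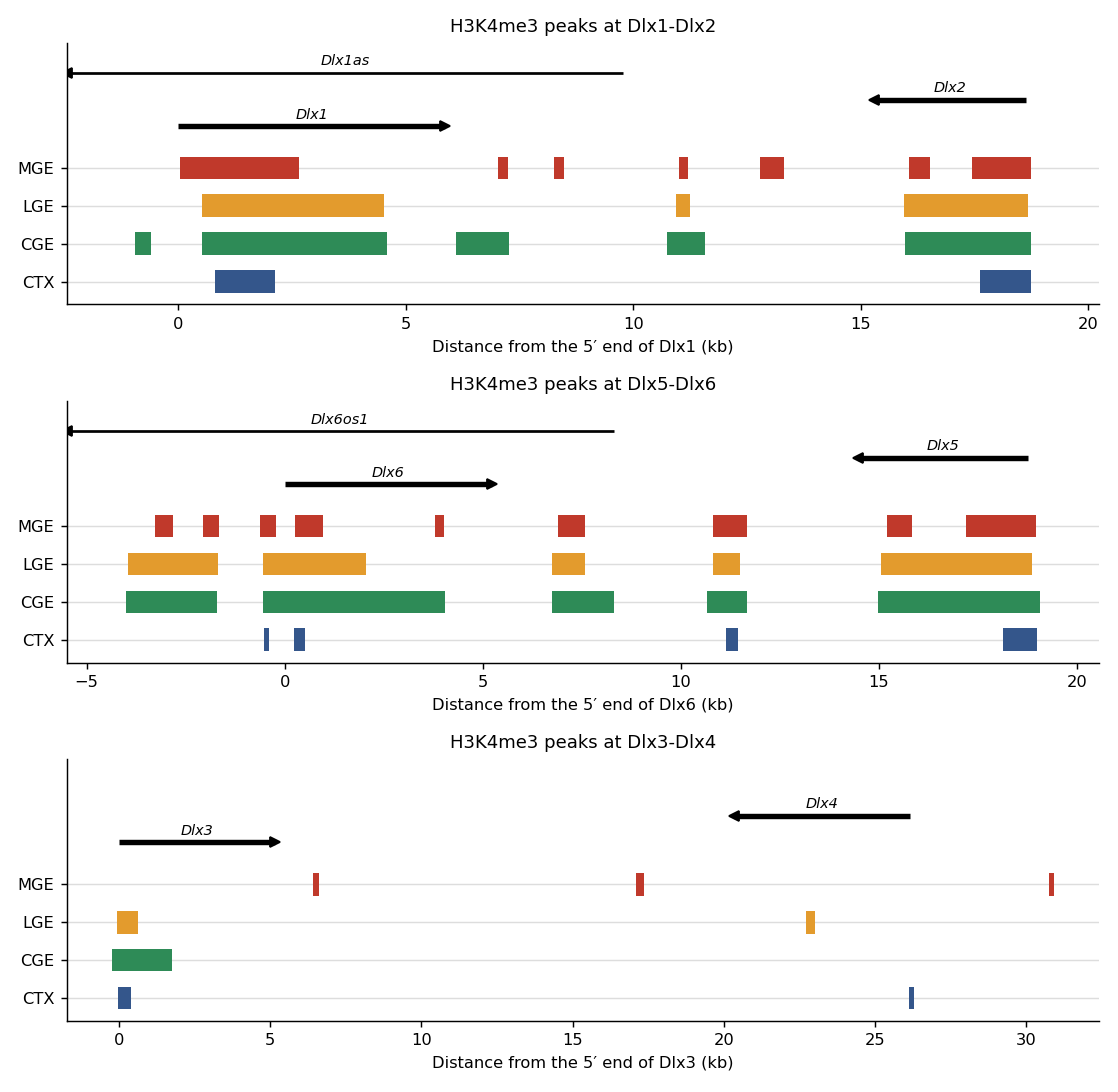
Peaks of the 4 lists (bars, 1 row for each region) at the 3 Dlx clusters, with the horizontal axis in kb from the 5′ end of Dlx1, Dlx6 or Dlx3 and arrows for the genes in the direction of transcription (Dlx1as and Dlx6os1 run past the left edge). The CTX bars of the upper 2 panels are few and short and lie near gene starts apart from 1 between Dlx6 and Dlx5, whereas the eminence bars also fall between the paired genes.

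Dlx1, which acts with Dlx2 in the progenitors and young neurons of the eminences, had 1307 covered bases in CTX, 2832 in MGE, 4003 in LGE and 5554 in CGE. The eminences were 2.17-fold (MGE), 3.06-fold (LGE) and 4.25-fold (CGE) above CTX, and all lay above the 98th percentile of protein-coding genes against 77.8 in CTX. In CGE only 98 of the 21951 protein-coding genes were more covered. The main Dlx1 peak was 2619 bp wide in MGE, 4003 in LGE and 4059 in CGE, wider than 99.5% or more of the peaks of those lists, and 1307 bp in CTX (84.4th percentile of width). It overlapped coding exons and untranslated exons of Dlx1. The CTX peak covered 3 of the 6 annotated Dlx1 TSSs, the MGE peak 4, and the LGE and CGE peaks 5. The start farthest upstream, at 71528113, was under no peak in any list, and the start farthest downstream, at 71530780, was under a peak in LGE and CGE only.

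Dlx2, which shares enhancers with Dlx1, varied least in covered bases among the ventral forebrain genes. Peaks covered 1128 bases at Dlx2 in CTX, 2227 in MGE (1.97-fold), 2734 in LGE (2.42-fold) and 2758 in CGE (2.45-fold). LGE and CGE differed by a ratio of 1.01. The percentile was 70.2 in CTX, 95.7 in MGE, 94.6 in LGE and 93.3 in CGE, so that on this scale MGE was the highest and CGE the lowest of the eminences, the reverse of the order in bases. The eminences stood 20.6 to 21.8 percentile points above CTX at Dlx1 and 23.1 to 25.5 at Dlx2, so that Dlx2 did not vary least on this scale. Both Dlx2 TSSs lay under a peak in every list. In MGE the mark was split into a 1293-bp peak at the start, a 468-bp peak in the gene body and a 525-bp peak downstream of it, while LGE and CGE each had 1 peak over the start and gene body.

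Dlx1as had no TSS under a peak in any list (0 of 4 TSSs in each), and its covered bases, 1307 in CTX, 3783 in MGE, 4316 in LGE and 6386 in CGE, came from peaks at or just beside Dlx1 and between Dlx1 and Dlx2. In CTX they were the Dlx1 peak alone. Counted from the 5′ end of the gene only, Dlx1as had no covered base in CTX and 1164 in MGE, 313 in LGE and 1985 in CGE, all between the coding genes. MGE then stood above LGE.

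Dlx5, which with Dlx6 is transcribed mostly in the subventricular and mantle zones of the eminences, had 857 covered bases in CTX, 2416 in MGE, 3808 in LGE and 4076 in CGE. These were 2.82-fold, 4.44-fold and 4.76-fold above CTX. The percentile was 55.9 in CTX and between 96.9 and 98.5 in the eminences. Among only the protein-coding genes with a peak in the list, it was 31.0 in CTX and between 95.2 and 97.6 in the eminences. All 3 Dlx5 TSSs were under a peak in every list. The LGE and CGE peaks, 3808 and 4076 bp wide, ran from before the start over most of the gene, and MGE had a 1787-bp peak at the start and a 629-bp peak in the gene body.

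Dlx6 had the largest ratio of any Dlx coding gene. It had 408 covered bases in CTX, from peaks of 126 and 282 bp, 2183 in MGE, 4836 in LGE and 6877 in CGE. The ratio to CTX was 5.35 in MGE, 11.9 in LGE and 16.9 in CGE. With peaks less than 1 kb apart joined, Dlx6 had 1049 covered bases in CTX, 3438 in MGE and the same as before in LGE and CGE, which makes each ratio smaller. Without joining, the percentile moved from 40.5 in CTX to 95.5, 99.5 and 99.9. Among only the protein-coding genes with a peak in CTX, Dlx6 stood at 6.81. Only 32 protein-coding genes were more covered in CGE, while in CTX 13059 were. The widest Dlx6 peak was 695 bp in MGE, 2579 in LGE and 4591 in CGE. The MGE bases lay in 5 peaks, against 2 in each of the other lists. The start of Dlx6 at 6863334 was under a peak in LGE and CGE only, and the starts at 6863797 and 6863798 were under one in all 4 lists.

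Dlx6os1, whose RNA is known to modulate Dlx5 and Dlx6 expression in the ventral forebrain, had 719 covered bases in CTX, 3722 in MGE, 6325 in LGE and 9495 in CGE. Its windows hold 30044 bases, against 10465 for Dlx6, since its 4 TSSs are far apart, and they include the Dlx6 peaks. It had the most covered bases of the 8 genes in LGE and CGE, and only 6 protein-coding genes were more covered in CGE. The TSS at 6861591 lay under a peak in each eminence and not in CTX. The TSSs at 6871592 and 6871633 lay under a peak in CGE only, in the 1585-bp peak that includes the first printed Dlx6-Dlx5 stretch, and the TSS at 6830791 under none.

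At Dlx3 the pattern differed from that of the ventral forebrain genes. Dlx3 had a 427-bp peak in CTX, a 690-bp peak in LGE and a 1967-bp peak in CGE, each over its only TSS, and no peak in MGE. The CGE peak had a percentile of covered bases of 82.5, while LGE (39.4) and CTX (40.8) were low among protein-coding genes. Dlx4 had 1 small peak in each of 3 lists, of 142 bp in MGE, 285 bp in LGE and 166 bp in CTX, and none in CGE. These 3 peaks did not overlap each other, and only the CTX peak lay over a Dlx4 TSS. Their −log10 q values, between 1.05 and 1.28, were among the lowest of their lists (4.09th percentile or lower), as was the CTX peak of Dlx3 at 1.23. With a −log10 q of at least 2 required, none of these 4 peaks remained.

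**Figure D2:**
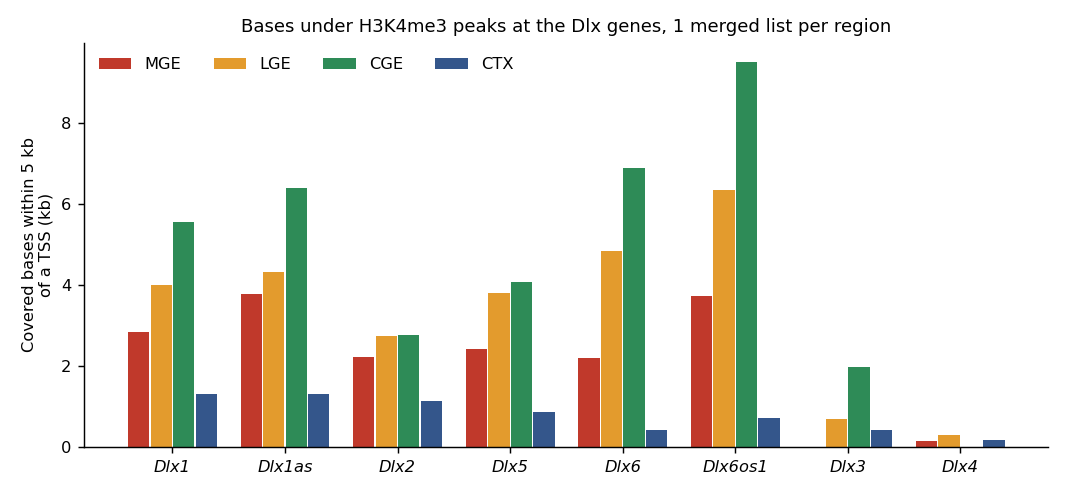
Covered bases (kb) within 5 kb of the annotated TSSs of each Dlx gene, as bars for the 4 regions, each from 1 merged list and so without an error. From Dlx1 to Dlx6os1 the CTX bar is the shortest, at 1307 bases or fewer, and the CGE bar the tallest, whereas Dlx3 lacks an MGE bar and Dlx4 a CGE bar.

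The number of Dlx genes at least 1.5-fold more covered than in CTX was 6 of 8 in MGE, 8 of 8 in LGE and 7 of 8 in CGE. With covered bases divided by the bases of the list, it was 6 in MGE, 6 in LGE and 7 in CGE. With a fold of 2 it was 5, 6 and 7. Over all genes with a peak in either list, the share was 13.4% for MGE, 28.1% for LGE and 36.7% for CGE, and over protein-coding genes 9.38%, 26.9% and 35.9%. The background was lowest for MGE, and there the 6 genes were the same ventral forebrain genes and transcripts. In LGE and CGE the count also took in Dlx3, which was 1.62-fold and 4.61-fold above its weakly called CTX peak, and in LGE Dlx4 (1.72-fold), whose peaks were weakly called in both lists. CGE had the most covered bases for 7 of the 8 genes and LGE for Dlx4. The lists themselves stand in the order CGE, LGE, MGE and CTX by covered length, which is also the order of covered bases at the 6 ventral forebrain genes and transcripts, whereas by median peak width MGE stands below CTX.

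The 9426 bp between Dlx1 and Dlx2 held no peak in CTX, 4 peaks covering 1164 bases in MGE (12.3% of the stretch), 1 peak covering 313 in LGE (3.32%) and 2 peaks covering 1985 in CGE (21.1%). The 9236 bp between Dlx6 and Dlx5 held 2 peaks in each eminence, covering 1539 bases in MGE (16.7%), 1489 in LGE (16.1%) and 2618 in CGE (28.3%), and 1 peak of 311 bases in CTX (3.37%). LGE was thus below MGE in both stretches. With a −log10 q of at least 2 this order held. MGE then had 426 bases and LGE 313 between Dlx1 and Dlx2, and 1539 and 1489 between Dlx6 and Dlx5. The order was reversed with every list limited to the 17284 peaks of highest fold. MGE then had 0 bases in both stretches, as had CGE. LGE, which has the shortest list and so lost no peaks, kept 313 and 1489. Between Dlx3 and Dlx4, over 15150 bp, MGE had 2 peaks covering 405 bases (2.67%), and LGE, CGE and CTX had none.

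Over the whole cluster, from the first base of one coding gene to the last of the other, peaks covered 12.6% of Dlx1-Dlx2 in CTX, 29.3% in MGE, 37.6% in LGE and 46.7% in CGE. For Dlx5-Dlx6 the shares were 6.47%, 24.9%, 38.5% and 55.7%, so that more of this cluster was marked in CGE than not. For Dlx3-Dlx4 the share was 6.73% in CGE and at most 3.57% in the other lists. The longest stretch without a peak was 15495 bp in CTX and 4373 bp in MGE at Dlx1-Dlx2, and 10614 bp in CTX and 3529 bp in MGE at Dlx5-Dlx6. All 2340 CTX bases in the Dlx1-Dlx2 cluster were also under peaks of each eminence, and at Dlx5-Dlx6 the 1213 CTX bases were all under LGE and CGE peaks and 97.8% under MGE peaks. In the same cluster all MGE and all LGE bases were under CGE peaks, while they made up 44.7% and 69.2% of the CGE bases. At Dlx1-Dlx2, 77.6% of MGE bases and 99.4% of LGE bases were under CGE peaks, and 74.0% of MGE bases were under LGE peaks. At Dlx3-Dlx4 the 405 MGE bases shared 0 bases with the other lists.

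**Figure D3:**
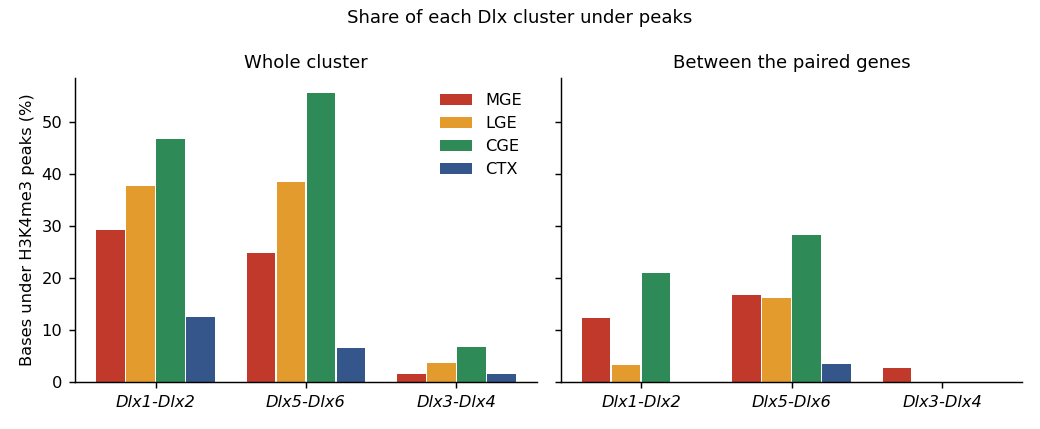
Share of bases (%) under peaks over each whole Dlx cluster (left) and between its paired genes (right), as bars for the 4 regions. In Dlx5-Dlx6 the share over the cluster goes from 6.47% in CTX to 55.7% in CGE, and no CTX bar stands between Dlx1 and Dlx2.

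The peaks of the ventral forebrain Dlx genes were low in the authors' fold enrichment, which is averaged over a peak, in all 3 eminences. Their median width percentile was 94.7 in LGE and 81.8 in CGE, where the peaks over the coding starts stood at 96.2 or higher. The peaks between the paired genes stood at 24.5 or lower in LGE and from 23.1 to 71.9 in CGE. In MGE the median width was 496.5 bp (percentile 45.8). In the Dlx1-Dlx2 and Dlx5-Dlx6 clusters, all 16 peaks in MGE, all 8 in LGE and all 10 in CGE had a fold below their list's median, as did 5 of 6 in CTX. These Dlx peaks had a median fold of 2.59 in MGE, 2.22 in LGE and 2.13 in CGE, against 4.59, 5.63 and 5.81 over the whole lists, and the median Dlx peak stood at the 0.744th, 0.960th and 1.06th percentile of fold. In CTX the median was 4.58, at the 40.9th percentile. The Dlx2 start peak was the highest of these peaks in each eminence list, with a fold of 4.35 in MGE, 3.60 in LGE and 4.00 in CGE (fold percentiles of 45.7, 15.1 and 25.4). In CTX the highest was the 282-bp Dlx6 peak, at 6.48. The −log10 q, which grows with reads, had a median over these peaks of 14.53 in LGE and 28.4 in CGE, below the 40.0 and 79.3 of the whole lists. In MGE the median was 5.27 against 5.19, and in CTX 4.37 against 8.57. The Dlx2 start peak stood well above these medians, with −log10 q percentiles of 86.7 in MGE, 87.1 in LGE and 86.5 in CGE.

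Fold also varied with how much of the surrounding 20 kb was under peaks. Around the Dlx peaks of these clusters the covered bases in 20 kb had a median of 1148 in CTX, 3264.5 in MGE, 5585.5 in LGE and 7536 in CGE. Over all CGE peaks, the median fold was 6.89 where 1 to 2 kb of the surrounding 20 kb was covered (8852 peaks), 3.26 at 4 to 6 kb (480 peaks) and 2.25 at 6 kb or more (96 peaks). In LGE the corresponding medians were 6.25, 3.03 and 2.26, the last from 47 peaks. The Dlx peaks were not left out of these groups of peaks, and the LGE median of 2.26 equalled the fold of a Dlx peak. The fall in median fold was not steady, since it was also lower where less than 1 kb was covered, at 4.103 in CGE and 4.041 in MGE. In MGE the median fold was 4.201 at 2 to 4 kb (2123 peaks), against 2.59 for the Dlx peaks. The part this has in the low fold at the Dlx genes was not tested. The low fold bears on 3 counts above. When every list was limited to the 17284 peaks of highest fold, the Dlx genes with a peak fell from 7 to 2 in MGE (Dlx2 and Dlx5) and from 7 to 3 in CGE (these and Dlx3), and the number of genes more covered in all 3 eminences than in CTX fell from 6 to 2.

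**Figure D4:**
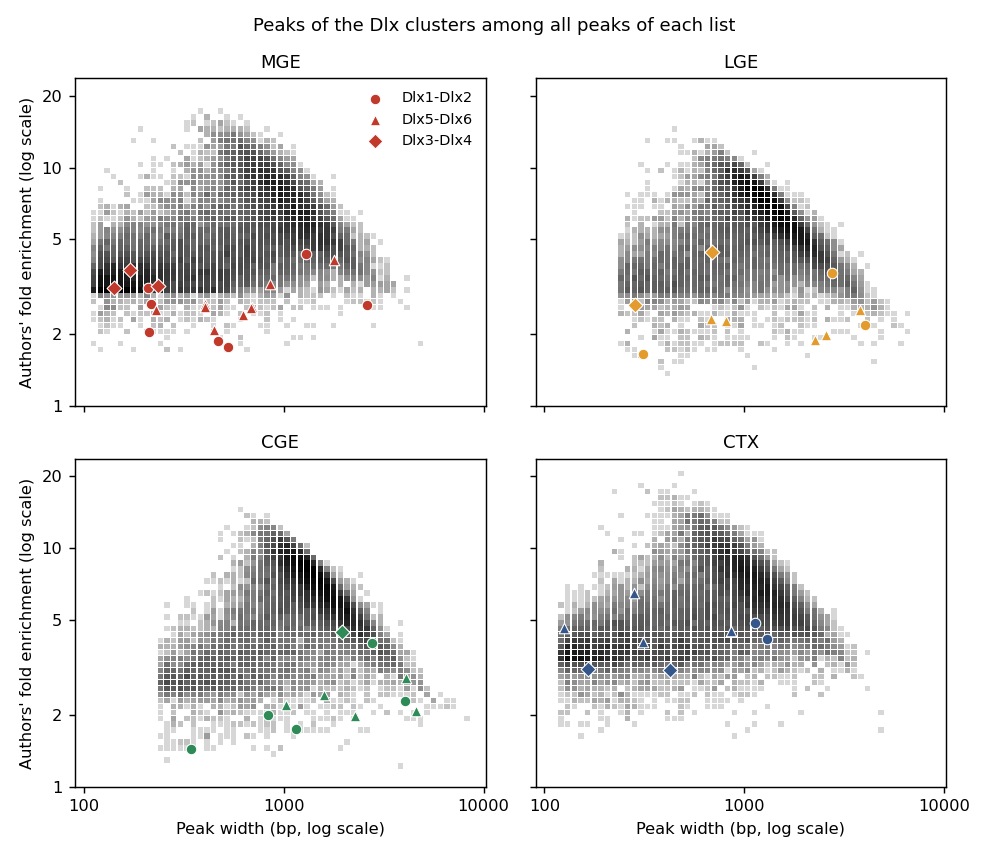
Width (bp) and authors' fold enrichment, both on log axes, of the peaks of the Dlx1-Dlx2 (circles), Dlx5-Dlx6 (triangles) and Dlx3-Dlx4 (diamonds) clusters over all peaks of each list, binned and darker where there are more. In MGE, LGE and CGE most Dlx peaks lie along the lower edge of the cloud, with a median fold of 2.59, 2.22 and 2.13 in the first 2 clusters, and in CTX they lie inside it.

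A list of 18 genes tied to Dlx factors was drawn from textbook knowledge, as regulators upstream of them or as partners and targets. Of these, 14 had more covered bases in all 3 eminences than in CTX, beside 37.7% of protein-coding genes with a peak in any list, and 13 a higher percentile, beside 21.1%. At 1.5-fold or more above CTX were 9 in MGE, 15 in LGE and 15 in CGE, beside 9.38%, 26.9% and 35.9% of protein-coding genes with a peak in either list. Upstream of Dlx, Gsx2 had 356 covered bases in CTX and 1910 to 2209 in the eminences, and Gsx1 had no peak in CTX and 1176 to 2087 bases in the eminences. Both had their highest percentile in MGE. Among the enzymes and transporters of GABA neurons, Gad1, which makes GABA, had 129 covered bases in CTX, 1663 in MGE, 2883 in LGE and 4418 in CGE. The vesicular transporter Slc32a1 had no peak in CTX and 3022, 4215 and 4829 bases in MGE, LGE and CGE.

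Unlike the ventral forebrain Dlx genes, 4 of the 18 genes had no peak in CTX at all (Gsx1, Slc32a1, Sp9 and Npas1, the last with none in MGE either). A CTX peak was not rarer among the 18 than among protein-coding genes, of which 63.8% had one. Among those of the 18 with a CTX peak, the highest ratios of the mean of the eminences to CTX were 24.7 for Six3, 23.2 for Gad1, 9.38 for the MGE regulator Lhx6 and 5.91 for Gsx2. The lowest were 0.946 for Sp8, 1.21 for Maf and 1.32 for Zeb2.

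**Figure D5:**
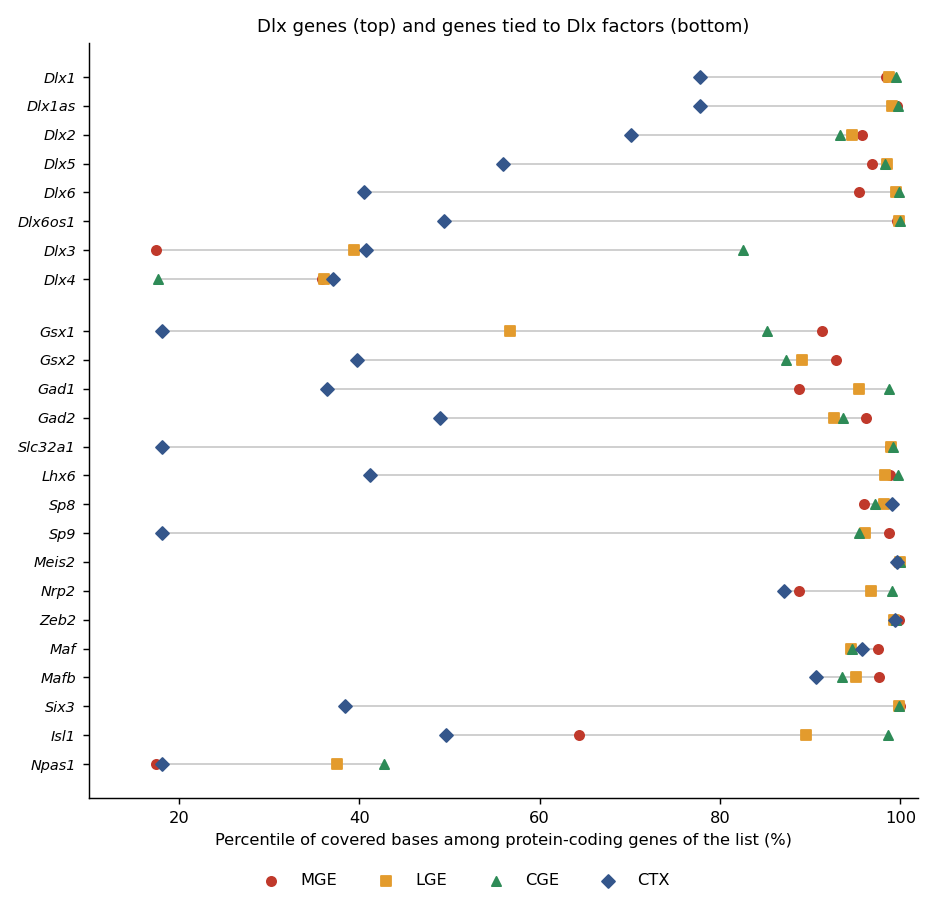
Percentile (%) of covered bases among protein-coding genes of the same list for the 8 Dlx genes (top) and 16 of the genes tied to Dlx factors (bottom), with 1 marker for each region. From Dlx1 to Dlx6os1 the eminence markers lie above 93% and the CTX marker between 40.5% and 77.8%, and Gsx1, Slc32a1, Sp9 and Npas1 have their CTX marker at 18.1%, where genes without a peak are tied.

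Protein-coding genes wholly within 100 kb of a Dlx cluster were few. Next to Dlx1-Dlx2, Metap1d had 512 covered bases in CTX, 1730 in MGE, 1235 in LGE and 1803 in CGE. At its 5′ end the peak was 512 bp wide in CTX and 496 bp in MGE, and the MGE excess came from other peaks in the gene, 1 of them in its overlap with Dlx1as. Next to Dlx3-Dlx4, Pdk2 had 927 to 1317 covered bases and Itga3 1463 to 1756, with CTX (1042 and 1732) inside the range of the eminences. Among 14894 protein-coding genes with a peak in any list, those nearest to the mean percentiles of Dlx1, Dlx2, Dlx5 and Dlx6 (61.1 in CTX and 96.6, 97.8 and 97.7 in MGE, LGE and CGE) were Nkx2-3, Nrxn3, Gli1, Pitpnm3 and Zfr2. Their Euclidean distances over the 4 regions were 2.66, 3.45, 3.91, 6.24 and 6.38 percentile points. Nkx2-3, the nearest, had percentiles of 59.9 in CTX and 95.0, 99.1 and 98.9 in the eminences.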

How the data were processed

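H3K4me3 CUT&Tag was analysed from 4 deposited lists of broad peaks, 1 each for MGE, LGE, CGE and CTX. According to the study's methods, the authors aligned paired-end reads to GRCm38/mm10 with Bowtie2, removed blacklisted regions and PCR duplicates (Picard), merged the replicates and called broad peaks with MACS. Its version, threshold and control are not given in the sources used here. Each deposited peak has a score (10 times the −log10 q, cut to a whole number), a fold enrichment that is a ratio to the background estimated by the caller, and −log10 p and −log10 q, all from the authors. The score and the −log10 p were not used, and no list was rescaled. The lists give no reads per peak and the library depths stated in the study's methods were not used, so no interval was computed.

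The libraries were grouped by the region in their titles. Peaks were compared with every TSS of GENCODE M21 (55450 genes, of which the 2 identifiers of Dlx6os1 were counted as 1 gene) in Python 3.11.15 with numpy 2.4.6 and pandas 2.3.3. Sequences were taken from RefSeq promoters and the GRCm38 genome with pysam 0.24.0, and figures drawn with matplotlib 3.10.9. Stretches shared by the eminences are the bases under a peak in all 3 eminence lists, and comparisons used those without a TSS and at least as long as the printed window. Interval arithmetic was tested on simulated data. The named genes were the 8 Dlx genes, the protein-coding genes whose span lies within 100 kb of a cluster, 18 genes tied to Dlx factors with values for the highest and lowest ratios, and the 5 genes most alike in percentile over the 4 regions. The counts over the 18 include 2 whose own values are left out of the text and figure. Values of Slc32a1, Gsx1, Sp9, Npas1 and the region markers are given beside these and were picked after they were seen. The Dlx genes and the lists were chosen with earlier results of these data known. Alternatives were windows of 2 and 10 kb, gene 5′ ends only, equal list lengths, a minimum −log10 q of 2, 50% of a peak inside the window, peaks less than 1 kb apart joined, covered bases as a share of the list, and a fold of 2.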

Additional observations from a re-analysis of the deposited data

How the results depend on the processing

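Of 51 counts of Dlx genes under the alternatives, 48 stayed within 1.5 times the reported count. The other 3 came from limiting every list to 17284 peaks of highest fold, under which Dlx genes with a peak numbered 2 in MGE and 3 in CGE, and those more covered in all 3 eminences than in CTX numbered 2. Of 272 values of covered bases at or between the genes, 175 were identical to those reported and 97 were not. With windows of 2 and 10 kb, 5′ ends only, a −log10 q minimum of 2, lists of equal length by −log10 q or peaks joined, Dlx1, Dlx1as, Dlx2, Dlx5, Dlx6 and Dlx6os1 stayed more covered in each eminence than in CTX. With lists of equal length by highest fold, only Dlx2 and Dlx5 did. Dlx1, Dlx1as, Dlx6 and Dlx6os1 then had 0 covered bases in MGE and CGE, below CTX, and LGE, with its list whole, had the most. The remaining alternatives were run for counts only. Between Dlx1 and Dlx2, MGE fell from 1164 bases to 426 by either choice on −log10 q, and by highest fold MGE and CGE had 0 there and between Dlx5 and Dlx6, below LGE (313 and 1489, with its list whole). Apart from the limit by highest fold, the order of the eminences changed for Dlx1as with windows of 2 kb (2199 bases in MGE, 1620 in LGE). With gene 5′ ends only it changed for Dlx1as and Dlx6os1 (Dlx6os1 1770 in MGE, 1489 in LGE). With peaks joined it changed for Dlx2, where MGE had the most (3140). No paired analysis was possible because every list pools its region's replicates, and for the same reason none could be left out in turn. A gene without a peak may carry the mark below the caller's threshold.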

Other observations

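Beyond the windows of the Dlx genes, the 100 kb on either side of the Dlx1-Dlx2 cluster held other intervals under peaks, some of which are given here. How common their patterns are over all intervals of the lists was not computed. On chromosome 2 of GRCm38, an interval from 71517068 to 71518040, in the overlap of Dlx1as and Metap1d and 1656 bp from a Metap1d TSS, had a peak of 973 bp in MGE, 391 in LGE and 867 in CGE and none in CTX. Its central 300 shared bases, with a G+C share of 40.0%, held 1 TAATTA. A second interval, from 71445584 to 71446210 and outside any gene, had peaks of 516, 509 and 519 bp in MGE, LGE and CGE and none in CTX. Another, from 71580828 to 71581707, 34074 bp from the Dlx2 start and in no gene, had a peak in all 4 lists, of 304 bp in CTX, 298 in MGE, 559 in LGE and 846 in CGE. The last, from 71629193 to 71630356, was in no gene and had peaks of 965 bp in CTX, 1026 in LGE and 1164 in CGE but none in MGE.

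Within Dlx6os1 on chromosome 6, an interval from 6850545 to 6851230, outside the TSS windows, had a 271-bp peak in LGE, a 686-bp peak in CGE, and none in MGE or CTX. These intervals were picked after their values were seen.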
